A study of Mus musculus with 9 samples.

Results

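Messenger RNA of 7 secreted factors of blood and lymph vessel growth was examined in 9 primary mouse mammary tumours. The factors were *Vegfa*, *Vegfb*, *Vegfc*, *Angptl2*, *Angptl4*, *Pdgfa* and *Thbs1*. They were chosen by name, with no threshold on their values, and all 7 were among the 14108 genes with counts. The tumours came from 3 lines, with 3 tumours each. HR1 is a mammary cancer line that does not metastasise, made from 1 tumour of a mouse that expressed a mutant *PIK3CA* transgene from the CAG promoter. LM1 and LM9 are lines grown out of lung metastases of HR1 cells in which the *piggyBac* transposon had been mobilised with doxycycline, and each is a single line. Thus all 9 tumours share the *PIK3CA* transgene, and 6 of them also went through transposon mutagenesis and growth in the lung. For every tumour 250000 cells in Matrigel and PBS were placed in the mammary fat pad of a female NOD/SCID mouse, a strain that lacks mature T and B cells, at 4 to 8 weeks of age. Tumours were taken before 1500 mm3, and RNA came from sorted GFP-positive cells.

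VEGFA is the main growth and survival signal for blood vessel endothelium and acts through the receptors encoded by *Flt1* and *Kdr*, with the neuropilins as co-receptors. VEGFC acts mostly on lymphatic vessels through *Flt4*, and VEGFB binds *Flt1*. ANGPTL2 and ANGPTL4 are secreted relatives of the angiopoietins, and ANGPTL4 also inhibits lipoprotein lipase. PDGFA recruits mesenchymal cells through *Pdgfra*, and thrombospondin 1, the product of *Thbs1*, is a matrix protein that restrains vessel growth. The study asked what sets lines with high *Nfib*, a transcription factor gene, apart from HR1 and from *Nfib* knockouts of LM1 and LM9. The knockouts are not among the tumours here. The study followed *Ero1l* (also *Ero1a*), which encodes an oxidoreductase of the endoplasmic reticulum, and VEGFA.

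Between 32393958 and 46681945 reads were counted on genes per tumour, and the lowest count of any factor was 56, for *Angptl4* in the tumour labelled HR1 replicate 1. Levels are given as CPM, which are counts scaled to a common library size with TMM factors. The tumour labelled HR1 replicate 1 went against its label. Its *Nfib* level was 1343 CPM, against 23.9 and 18.3 CPM in the other HR1 tumours and 420.6 to 791 CPM in the LM tumours. Its correlation with the other HR1 tumours across genes was 0.867 and 0.881 on the log2 scale, against 0.955 between the other two. It was kept under its label, and results against HR1 are also given without it. The lists of cell type markers were compared with the sort of tumour cells. Of 10 epithelial markers 6 were listed, and the others were not analysed here. *Epcam* reached at most 4.49 CPM and *Cdh1* at most 1.2 CPM, while the summed epithelial level was 7.55 to 121.4 CPM in HR1, 157.5 to 181.1 CPM in LM1 and 14.45 to 17.97 CPM in LM9, mostly from *Krt14* except in the tumour labelled HR1 replicate 1, where *Epcam* led. The defining epithelial markers were thus at low levels in tumours of a mammary line. The 10 fibroblast and pericyte markers summed to 22050 to 35210 CPM in HR1, 10360 to 13790 CPM in LM1 and 8972 to 10540 CPM in LM9. *Col1a1* led in 7 tumours, *Dcn* in the tumour labelled HR1 replicate 1 (17600 CPM, against 432.0 and 329.0 CPM in the other HR1 tumours) and *Col3a1* in HR1 replicate 2. The 10 leukocyte markers summed to 163.4 to 697.1 CPM, 133.6 to 142.6 CPM and 180.5 to 219.8 CPM, of which *Cd68* alone made 107.0 to 138.0 CPM in LM9 and 15.9 to 17.9 CPM in LM1, and 7 of the 10 were lower in LM1 and LM9 together versus HR1, as were 23.6% of all genes.

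*Vegfa* had the largest increase versus HR1 of the 7 factors in each LM line, and it was the only one whose values did not overlap between any of the 3 lines. It lies on the minus strand of chromosome 17 of GRCm38 (mm10), from 46016993 to 46032377. Its level was 40.3, 127.3 and 125.5 CPM in HR1 replicates 1, 2 and 3. It was 203.1, 313.7 and 217.6 CPM in the LM1 tumours and 859.1, 654.8 and 551.6 CPM in the LM9 tumours. All LM1 tumours were above all HR1 tumours and all LM9 tumours above all LM1 tumours, with the tumour labelled HR1 replicate 1 lowest of the 9. The group means were 97.7 ± 49.7 CPM in HR1, 244.8 ± 60.1 CPM in LM1 and 688.5 ± 156.5 CPM in LM9 (SD, n = 3 each).

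The log2 fold change of *Vegfa* in LM1 and LM9 together versus HR1 was 2.07 (SE, the standard error, 0.39; adjusted p = 0.0032 by the quasi-likelihood test of edgeR after Benjamini-Hochberg adjustment over all genes), a 4.2-fold difference. In LM1 versus HR1 it was 1.32 (SE 0.41, adjusted p = 0.0338) and in LM9 versus HR1 it was 2.82 (SE 0.43, adjusted p = 0.0015), which are 2.5-fold and 7.04-fold. These comparisons share the HR1 tumours. In LM9 versus LM1, which shares none of them but uses the spread estimated with them, *Vegfa* was higher by 1.49 (SE 0.41, adjusted p = 0.0329). *Vegfa* thus passed in each comparison with all tumours, although the calls in LM1 versus HR1 and LM9 versus LM1 were lost under some of the alternatives. With the tumour labelled HR1 replicate 1 left out, the log2 fold changes were 1.70 (adjusted p = 1.9e-04), 0.96 (adjusted p = 0.0064), 2.45 (adjusted p = 4.4e-05) and 1.49 (adjusted p = 4.6e-04) in the same order. For LM1 versus HR1 the adjusted p was 0.117 without LM1 replicate 2, the LM1 tumour with the most *Vegfa*, 0.0606 without LM1 replicate 1, 0.0642 without LM1 replicate 3, 0.0532 without LM9 replicate 2 and 0.0791 with only the 6 tumours compared. For LM9 versus LM1 the adjusted p lay between 0.0524 and 0.121 in the 6 fits that each left out an LM tumour, while the log2 fold change stayed between 1.30 and 1.72. With only the 6 LM tumours fitted this difference passed, at 1.48 (SE 0.20, adjusted p = 1.3e-04).

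*Ero1l* was at 37.2, 65.7 and 72.3 CPM in HR1, 111.0 to 131.6 CPM in LM1 and 805.6 to 1232 CPM in LM9. The lines followed in the same order as for *Vegfa*, and LM9 exceeded LM1 by 2.97 on the log2 scale (SE 0.28, adjusted p = 5.4e-04). In bulk RNA a larger share of cells that express a gene and more RNA of it per cell cannot be told apart, here and in what follows.

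**Figure D1:**
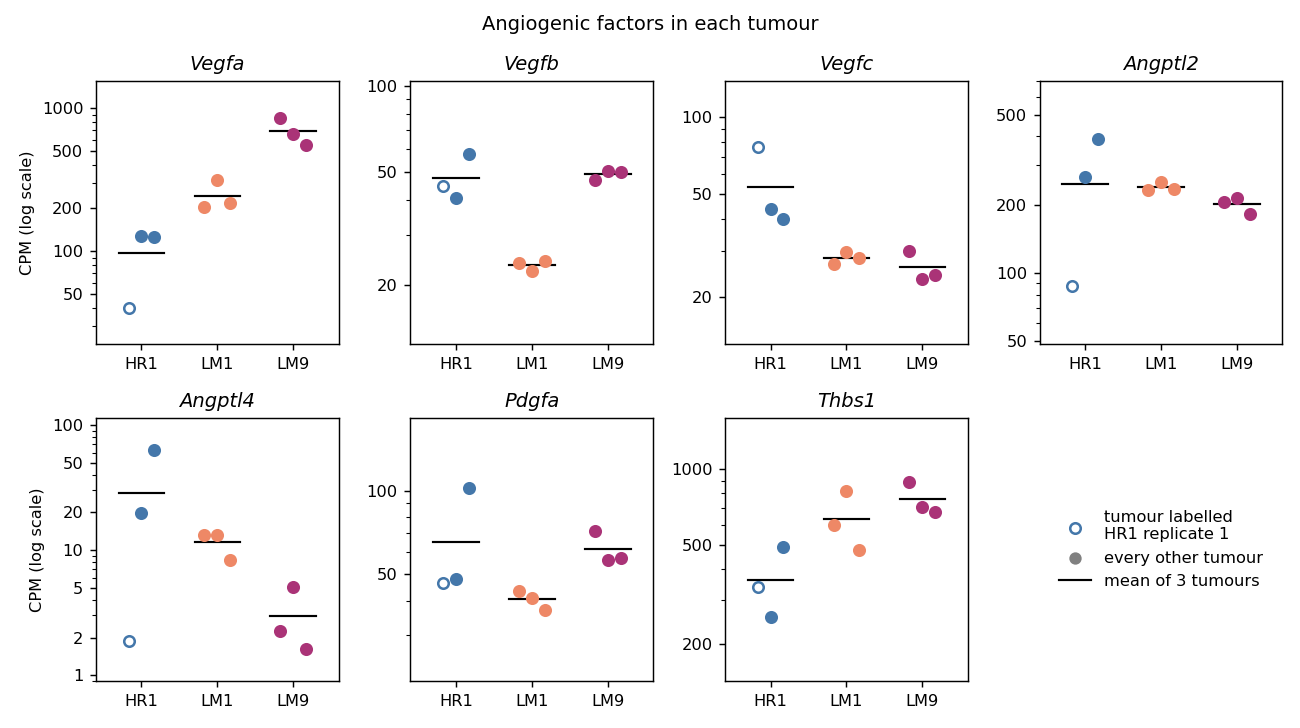
Level of each of the 7 factors in each tumour, in CPM on a log axis, with 1 point per tumour and a line at the mean of 3 tumours. The open point is the tumour labelled HR1 replicate 1, and *Vegfa* rises from 97.7 CPM on average in HR1 to 244.8 CPM in LM1 and 688.5 CPM in LM9 without overlap between lines.

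*Vegfb* separated LM1 from the other lines. The gene lies on the minus strand of chromosome 19, from 6982472 to 6987651. Its level was 44.8, 40.3 and 57.9 CPM in HR1, 24.0, 22.4 and 24.3 CPM in LM1, and 46.8, 50.4 and 50.0 CPM in LM9. All 3 LM1 tumours were below every HR1 and every LM9 tumour, and the HR1 and LM9 ranges overlapped. The log2 fold change was −1.02 in LM1 versus HR1 (SE 0.15, adjusted p = 0.0016) and 1.06 in LM9 versus LM1 (SE 0.15, adjusted p = 0.0031). In LM9 versus HR1 it was 0.04 (SE 0.15, adjusted p = 0.843). LM1 and LM9 together were lower than HR1 (−0.49, SE 0.13, adjusted p = 0.0155), although LM9 alone did not pass. When the tumour labelled HR1 replicate 1 was left out, the first 3 values were −1.05 (adjusted p = 4.0e-04), 1.05 (adjusted p = 4.0e-04) and 0.00 (adjusted p = 0.996), and the last was −0.53 (adjusted p = 0.0085).

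*Vegfc* was lower in both LM lines. It lies on the plus strand of chromosome 8, from 54077532 to 54186454. Its level was 76.6, 43.9 and 40.2 CPM in HR1, 26.7, 29.8 and 28.4 CPM in LM1 and 30.2, 23.5 and 24.2 CPM in LM9. Each LM tumour was below each HR1 tumour, and LM1 and LM9 overlapped. The tumour labelled HR1 replicate 1 had the most *Vegfc* of the 9, as it had the least *Vegfa*. The log2 fold change was −0.98 in LM1 and LM9 together versus HR1 (SE 0.20, adjusted p = 0.0052), −0.92 in LM1 (SE 0.24, adjusted p = 0.0188) and −1.04 in LM9 (SE 0.24, adjusted p = 0.0099). LM9 versus LM1 gave −0.12 (SE 0.24, adjusted p = 0.750). Without the tumour labelled HR1 replicate 1 the differences from HR1 were −0.63, −0.56 and −0.69 (adjusted p = 0.0024, 0.0091 and 0.0030). In LM1 versus HR1 the adjusted p was between 0.0515 and 0.0701 in the fits that left out 1 of the LM1 tumours, and 0.0528 with only the 6 tumours compared.

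The VEGF genes therefore made up different mixtures in the lines. The levels of *Vegfa*, *Vegfb*, *Vegfc* and the remaining family ligands *Vegfd* and *Pgf* (placental growth factor, a ligand of *Flt1*) were divided by the length of their exons and expressed as shares of their sum. *Vegfa* held 8.71%, 27.8% and 21.2% in HR1, 39.2%, 48.9% and 37.3% in LM1 and 70.1%, 67.3% and 62.7% in LM9. Its share did not overlap between any of the lines. *Vegfb* held 25.1% ± 1.37 in HR1, 10.9% ± 1.54 in LM1 and 13.1% ± 2.58 in LM9, and *Vegfc* held 19.2% ± 8.79, 8.55% ± 0.457 and 4.46% ± 0.318 (SD, n = 3). The share of *Vegfb* was thus low in LM9 although its level overlapped that of HR1, as a share depends also on the other ligands. *Vegfd*, which acts on lymphatic vessels, held 22.0% to 35.8% in HR1 and 4.08% to 7.37% in the LM tumours, and its level was lower in LM1 and LM9 together versus HR1 (−1.89, adjusted p = 5.9e-04, or −2.10 without the tumour labelled HR1 replicate 1). *Pgf* held 29.0% to 36.7% in LM1, against 9.92% to 10.9% in LM9 and 2.43% to 14.6% in HR1, and its level was higher in LM1 (2.42, adjusted p = 0.0094) and LM9 (1.58, adjusted p = 0.0391) than in HR1. The tumour labelled HR1 replicate 1 had 45.7 CPM of *Pgf*, against 7.52 and 20.5 CPM in the other HR1 tumours, and without it the differences were 3.23 (adjusted p = 2.8e-04) and 2.39 (adjusted p = 0.0011). For *Vegfa*, *Vegfb* and *Vegfc* 12 shares were compared by two-sided exact permutation tests. LM1 and LM9 together versus HR1 gave an exact p = 0.0238 for each of the 3 genes. This is the smallest p that 6 against 3 tumours allow, and with 3 against 3 tumours no p can be under 0.1. After adjustment over the 12 tests the value was 0.0952, the lowest these group sizes allow. It lies above the threshold for adjusted p-values, so no share could have passed, and no conclusion is drawn from these tests. The shares are also parts of the same sum, so the 3 results are not separate from each other.

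**Figure D2:**
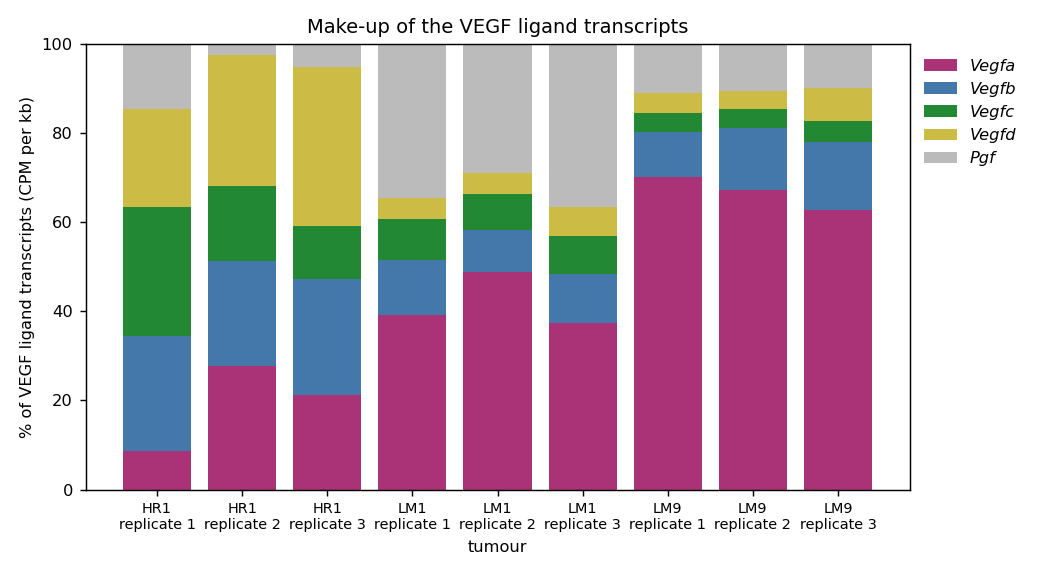
Share of each VEGF family ligand in the sum of the 5 ligands, in percent of CPM per kb of exon, for each of the 9 tumours. *Vegfa* takes 8.71% to 27.8% in HR1, 37.3% to 48.9% in LM1 and 62.7% to 70.1% in LM9.

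The receptors of these ligands were read in the same cells. *Kdr*, which encodes the main signalling receptor of VEGFA, was at 0.432, 1.73 and 1.13 CPM in HR1, 22.3 to 33.95 CPM in LM1 and 23.3 to 37.3 CPM in LM9. *Kdr* exceeded HR1 by 4.60 on the log2 scale in LM1 (SE 0.46, adjusted p = 3.0e-04) and by 4.84 in LM9 (SE 0.47, adjusted p = 1.8e-04), or 4.24 and 4.48 without the tumour labelled HR1 replicate 1. *Kdr* is also on the list of endothelial markers, of which 9 of 10 were listed, with a sum of 6.87 to 32.8 CPM in HR1, 170.1 to 235.2 CPM in LM1 and 253.0 to 291.7 CPM in LM9. *Cdh5* and *Kdr* made up most of it in LM tumours, with *Cdh5* at 136.0 to 254.0 CPM there. *Ptprb* was 5.82 to 8.99 CPM in LM1 and at most 0.408 CPM in LM9, and the other 6 markers were at or below 1.25 CPM in every LM tumour. Of the 9 markers 3 were higher and none lower in LM1 versus HR1, 2 were higher and 3 lower in LM9 versus HR1, and 2 were higher and 6 lower in LM1 and LM9 together versus HR1. The shares of all genes were 16.7% higher and 18.7% lower, 20.4% and 21.9%, and 19.9% and 23.6% in the same order. Without the tumour labelled HR1 replicate 1 the marker counts were 3 higher and 3 lower, 2 and 5, and 2 and 6. Of all 14107 genes in that fit 3788 were higher and 3665 lower, 3941 and 3921, and 3885 and 4017. The part of endothelial cells in the level of *Kdr* was not tested. *Tek* was not analysed here.

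*Flt1* was at 2.43, 91.8 and 117.9 CPM in HR1, 31.2 to 49.7 CPM in LM1 and 95.2 to 102.1 CPM in LM9. No comparison of *Flt1* passed the test with all tumours (adjusted p from 0.329 to 0.857). The tumour labelled HR1 replicate 1 was far below every other tumour, and in its absence *Flt1* was lower in LM1 than in HR1 (−1.42, adjusted p = 2.3e-04) and higher in LM9 than in LM1 (1.32, adjusted p = 3.7e-04). *Flt4*, the receptor gene for VEGFC and VEGFD, had 1.62 to 2.76 CPM in LM1 and at most 0.473 CPM elsewhere, where single libraries held as few as 2 reads. It was higher in LM1 than in HR1 (3.18, SE 0.73, adjusted p = 0.0102, or 2.86 without the tumour labelled HR1 replicate 1) and lower in LM9 than in LM1 (−4.16, SE 0.77, adjusted p = 0.0077). The co-receptor gene *Nrp1* was 60.9 to 69.4 CPM in HR1, 82.2 to 102.2 CPM in LM1 and 99.1 to 116.1 CPM in LM9, with log2 fold changes of 0.47 (adjusted p = 0.0246) and 0.73 (adjusted p = 0.0032) versus HR1, or 0.52 and 0.78 without that tumour. *Nrp2* was 117.0 to 467.2 CPM in HR1, 244.7 to 359.5 CPM in LM1 and 526.0 to 555.9 CPM in LM9, and passed in none of the comparisons (adjusted p from 0.0942 to 0.919). When the tumour labelled HR1 replicate 1 was left out, it was higher in LM9 than in LM1 (0.88, adjusted p = 0.0088).

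**Figure D3:**
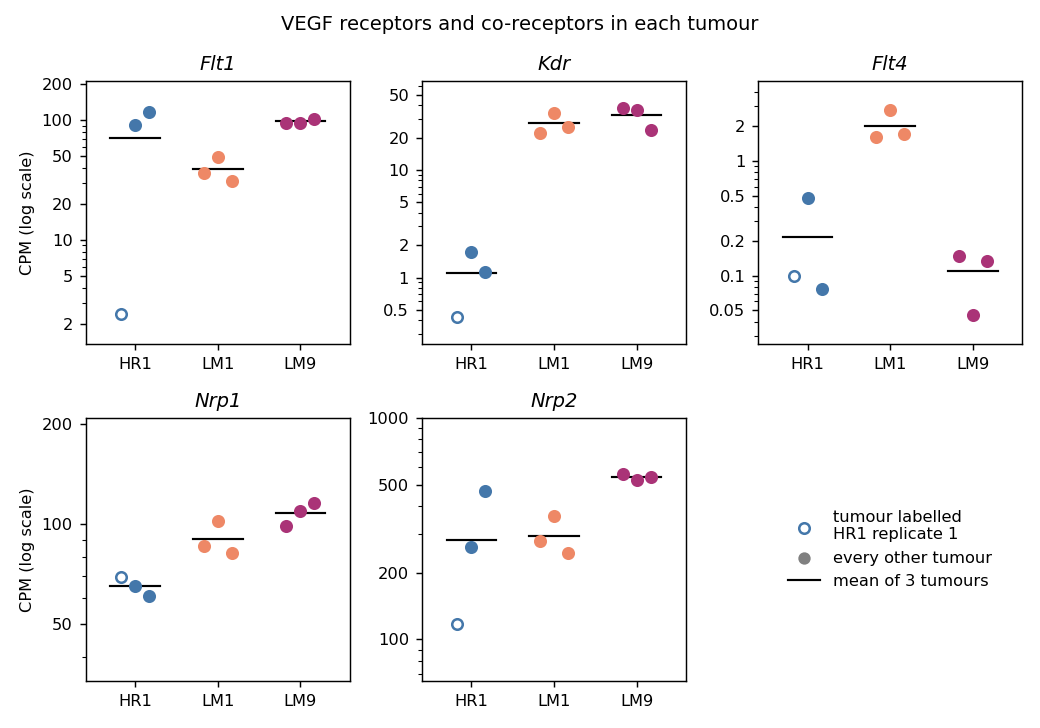
Level of the 5 VEGF receptor and co-receptor genes in each tumour, in CPM on a log axis, with 1 point per tumour and a line at the mean of 3 tumours. The open point is the tumour labelled HR1 replicate 1, which has 2.43 CPM of *Flt1*, and *Kdr* lies above 22 CPM in all LM tumours and below 2 CPM in all HR1 tumours.

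The angiopoietin-like factors did not follow *Vegfa*. *Angptl4* lies on the minus strand of chromosome 17, from 33774900 to 33781575, and had the lowest mean of the factors in each line. Its level was 1.86, 19.7 and 63.4 CPM in HR1, 13.2, 13.1 and 8.28 CPM in LM1 and 2.27, 5.04 and 1.62 CPM in LM9. Every LM9 tumour was below every LM1 tumour. The HR1 tumours were widely spread, with the tumour labelled HR1 replicate 1 among the LM9 values and the other HR1 tumours above all LM tumours. The log2 fold change was −2.27 in LM1 and LM9 together versus HR1 (SE 0.77, adjusted p = 0.0416) and −3.25 in LM9 versus HR1 (SE 1.01, adjusted p = 0.0311). It was −1.30 in LM1 versus HR1 (SE 0.94, adjusted p = 0.311) and −1.95 in LM9 versus LM1 (SE 0.97, adjusted p = 0.175). Without the tumour labelled HR1 replicate 1 all of these passed, with log2 fold changes of −2.82, −3.80, −1.84 and −1.96 (adjusted p = 0.0010, 8.4e-04, 0.0211 and 0.0167). Without HR1 replicate 3, the tumour with the most *Angptl4*, none of the 3 differences from HR1 passed, at −0.88 (adjusted p = 0.352) in LM1 and LM9 together, −1.86 (adjusted p = 0.107) in LM9 and 0.095 (adjusted p = 0.941) in LM1. The call in LM1 and LM9 together was kept in 2 of 9 leave-one-out fits, those without HR1 replicate 1 and without LM9 replicate 2, and the call in LM9 versus HR1 in 5 of 9, being lost without any 1 of the LM9 tumours (adjusted p from 0.0523 to 0.103). The call in LM9 versus HR1 was also lost with only the 6 tumours compared (−3.26, adjusted p = 0.0776) and with limma-voom (−2.48, adjusted p = 0.160). LM9 versus LM1 passed with only the 6 LM tumours fitted (adjusted p = 0.0020).

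*Angptl2* lies on the plus strand of chromosome 2, from 33215951 to 33247725. It was at 87.3, 263.9 and 390.3 CPM in HR1, 231.9, 250.9 and 234.2 CPM in LM1 and 205.3, 214.6 and 182.6 CPM in LM9. The LM lines held narrow ranges that did not overlap, while the HR1 tumours lay on both sides of them. No comparison passed with all tumours in the fit, with log2 fold changes from −0.30 to −0.05 and adjusted p from 0.592 to 0.940, and LM9 versus LM1 passed with only the 6 LM tumours fitted (−0.26, adjusted p = 0.0468). The gene, once the tumour labelled HR1 replicate 1 was left out, was lower than in HR1, with log2 fold changes of −0.57, −0.45 and −0.70 in LM1 and LM9 together, LM1 and LM9 (adjusted p = 0.0068, 0.0418 and 0.0049).

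*Pdgfa* lies on the minus strand of chromosome 5, from 138976014 to 139000792. It was at 46.5, 48.0 and 101.8 CPM in HR1, 43.4, 40.9 and 37.0 CPM in LM1 and 71.2, 56.0 and 57.1 CPM in LM9. Each LM1 tumour was below each tumour of the other lines, and HR1 and LM9 overlapped. No comparison passed the test with all tumours. The closest was LM1 versus HR1 with a log2 fold change of −0.70 (SE 0.29, adjusted p = 0.0921), and without the tumour labelled HR1 replicate 1 it passed (−0.88, adjusted p = 0.0189). LM9 versus LM1 gave 0.60 (SE 0.29, adjusted p = 0.162), and passed without HR1 replicate 3 (adjusted p = 0.0160) and with only the 6 LM tumours fitted (0.59, adjusted p = 0.0018). A share of 26.1% of the exon bases of *Pdgfa* overlaps the antisense gene *6330403L08Rik*, and since the strand setting of the gene counts is not given in the sources used here, its values are uncertain to that extent.

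*Thbs1*, the inhibitor among the factors, was higher in LM tumours. It lies on the plus strand of chromosome 2, from 118111876 to 118127133. Its level was 338.0, 256.9 and 489.5 CPM in HR1, 597.0, 820.3 and 475.0 CPM in LM1 and 891.4, 708.2 and 675.9 CPM in LM9. The LM9 tumours were all above HR1, and LM1 overlapped both of the other lines. The log2 fold change was 0.94 in LM1 and LM9 together versus HR1 (SE 0.25, adjusted p = 0.0154) and 1.07 in LM9 versus HR1 (SE 0.28, adjusted p = 0.0151). In LM1 versus HR1 it was 0.80 (SE 0.28) and did not pass (adjusted p = 0.05003). It passed with other size factors, with no filter, with DESeq2 and with limma-voom (adjusted p from 0.0209 to 0.0499), but not with the CPM filter (0.0556), with only the 6 tumours compared (adjusted p = 0.112) or without LM1 replicate 2 (0.56, adjusted p = 0.190). When the tumour labelled HR1 replicate 1 was left out, the differences were 0.90 (adjusted p = 0.0227), 1.03 (adjusted p = 0.0187) and 0.76 (adjusted p = 0.0601) in the same order. The call in LM9 versus HR1 was lost without LM9 replicate 1 (0.94, adjusted p = 0.0588), and LM1 versus HR1 passed without HR1 replicate 3 (adjusted p = 0.0156) and without LM1 replicate 3 (adjusted p = 0.0445). LM9 versus LM1 gave 0.27 (SE 0.28, adjusted p = 0.516). Exons of *Thbs1* share 3.42% of their bases with *Gm29233*, a long non-coding gene on the opposite strand. Per length, the ratio of *Vegfa* to *Thbs1* was 0.169, 0.702 and 0.363 in HR1, 0.482 to 0.649 in LM1 and 1.16 to 1.37 in LM9. Per length of exon the activator thus exceeded the inhibitor in the LM9 tumours and in none of the others. In CPM, before division by length, *Vegfa* was below *Thbs1* in every LM9 tumour, at 859.1, 654.8 and 551.6 CPM. The lengths are those of all annotated exons of a gene, and which transcripts were present was not tested.

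**Figure D4:**
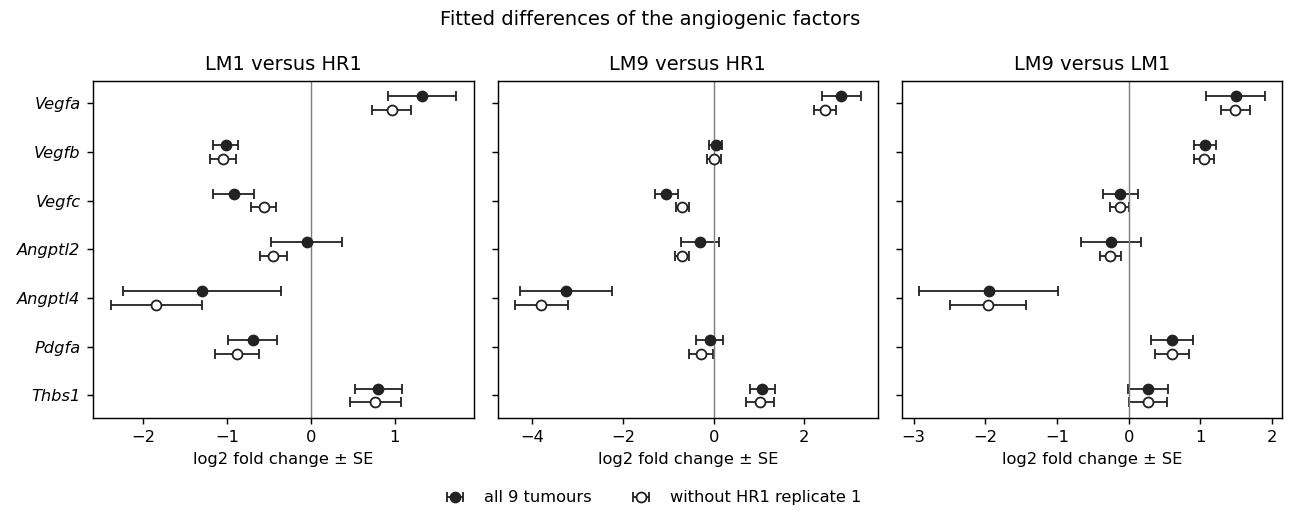
Log2 fold change with its standard error for each factor in LM1 versus HR1, LM9 versus HR1 and LM9 versus LM1, with all 9 tumours (filled) and without the tumour labelled HR1 replicate 1 (open). In LM9 versus HR1 *Vegfa* is at 2.82 and *Angptl4* at −3.25 with all tumours, and leaving out that tumour moves the latter to −3.80.

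By count, 5 of the 7 factors passed the test in LM1 and LM9 together versus HR1, 2 higher and 3 lower, where 43.6% of the 14086 genes tested passed. In LM1 versus HR1 it was 3 of 7 against 35.5% of all genes, in LM9 versus HR1 4 of 7 against 42.3%, and in LM9 versus LM1 2 of 7 against 22.0%. Counts of so few genes are not read further beside such background shares. Without the tumour labelled HR1 replicate 1 the counts were 6, 6, 5 and 3, and the shares of all genes were 56.0%, 52.8%, 55.7% and 45.5%.

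Per length of exon the order of the factors also differed between the lines. In HR1 *Thbs1* came first (59.5 ± 19.4 CPM per kb), followed by *Angptl2* (39.3 ± 24.2), *Vegfb* (29.7 ± 5.67), *Vegfa* (22.8 ± 11.6), *Vegfc* (21.9 ± 8.19), *Pdgfa* (21.0 ± 10.1) and *Angptl4* (8.001 ± 8.946). Each neighbour in that order overlapped the next over the 3 tumours. In LM1 *Thbs1* (103.9 ± 28.8 CPM per kb), *Vegfa* (57.12 ± 14.02) and *Angptl2* (38.0 ± 1.65) were set apart from each other and from the rest, and only *Pdgfa* and *Vegfc* overlapped as neighbours. In LM9 *Vegfa* was first (160.7 ± 36.5 CPM per kb) but overlapped *Thbs1* (124.9 ± 19.1), and *Angptl2* (31.9 ± 2.62) overlapped *Vegfb* (30.6 ± 1.25). *Angptl4* was last in each line, at 0.841 ± 0.512 CPM per kb in LM9.

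The 250 bases before the RefSeq start of each factor (GRCm38.p6) were searched on both strands for the core of the hypoxia response element that HIF binds (ACGTG or GCGTG) and for the half-site of NFI proteins, the family of NFIB (TTGGC). Windows were at hand for 5 of the 7 factors, *Angptl4* and *Thbs1* being without one. The HIF core was found in 38.6% and the NFI half-site in 41.5% of all 32851 windows, so a match is frequent. The following 30-base stretches hold every match, shown because the factors moved in different directions, with the matched letters in capitals, 5′ to 3′ on the strand of the gene.
*Vegfa*, internal start, chr17:46025361-46025390: ccctggagtGCGTGccCACGTcagagagca
*Vegfb*, chr19:6987872-6987901: cggtccttcaggtCACGCatctcctcaccc
*Vegfb*, chr19:6987716-6987745: cccggtggggagcGCGTGtttaggtcacat
*Angptl2*, chr2:33215846-33215875: ccagccttcctgtGCCAAagaaggaggggg
*Angptl2*, chr2:33215876-33215905: ccccgcccaggccGCCAAagcaggcaggag
*Pdgfa*, chr5:138995159-138995188: cgggagctgcagcCACGCtccgcggtcccc
The first stretch lies in the coding sequence of *Vegfa* before an internal start, not at the main start of the gene, whose own window held none of the letters searched. The *Vegfc* window held none either. The *Vegfb* and *Angptl2* stretches lie outside their genes as annotated, and that of *Pdgfa* outside its exons. The *Vegfa* window at the main start had 59.2% G and C, that of *Vegfb* 76.4% and that of *Vegfc* 71.6%, against a median of 52.4% over all windows. These matches are letters in a window and were not tested for binding.

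The genes whose levels followed *Vegfa* most closely over the 9 tumours were *Ern1*, *Ptk2b*, *Dusp4*, *Zfp518a* and *Plk3*. Closeness was the root mean square difference of log2 CPM, after each gene was centred on its mean, among 9369 genes that averaged 10 CPM or more. It was 0.245 for *Ern1*, which encodes the stress sensor IRE1 of the endoplasmic reticulum, and 0.290 for *Plk3*, the fifth. *Ern1* was at 6.08, 11.2 and 14.7 CPM in HR1, 19.0 to 30.7 CPM in LM1 and 56.8 to 77.2 CPM in LM9. *Ptk2b*, a focal adhesion kinase gene, averaged 13.8, 26.8 and 105.0 CPM in HR1, LM1 and LM9, and *Dusp4*, a phosphatase gene of MAP kinases, 23.4, 41.3 and 133.0 CPM. Like *Vegfa*, all 5 were lowest in the tumour labelled HR1 replicate 1, which their choice by closeness over these same tumours largely fixed. The distance was 0.701 for *Ero1l* and 0.917 for *Thbs1*, the nearest of the other factors, and 2.37 for *Angptl4*, the farthest.

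**Figure D5:**
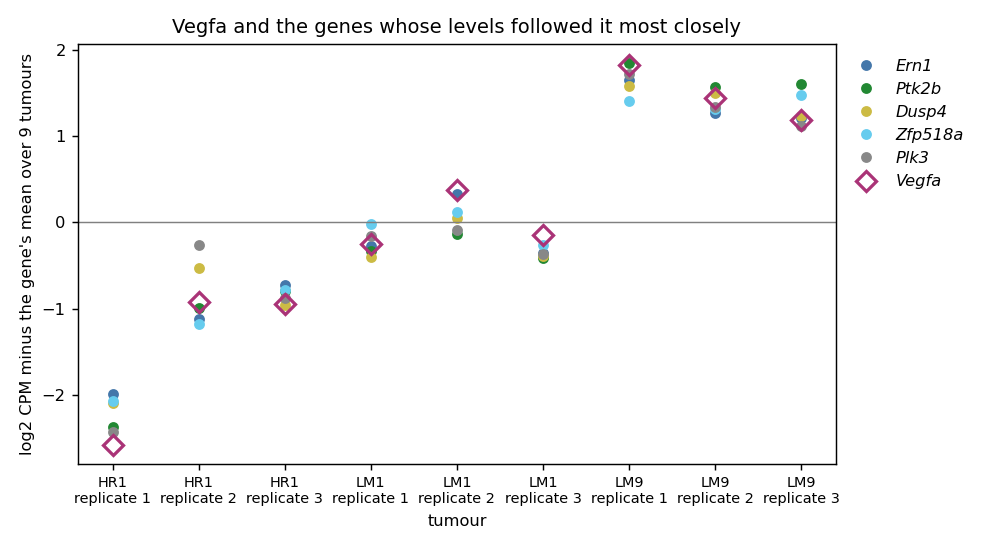
Log2 CPM of *Vegfa* (diamonds) and of the 5 genes closest to it (points) in each tumour, each less its own mean over the 9 tumours. All are lowest in the tumour labelled HR1 replicate 1 and highest in the LM9 tumours, which follows largely from how the 5 genes were chosen. The distance from *Vegfa* ranges from 0.245 for *Ern1* to 0.290 for *Plk3*.

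Other genes of vessel growth were taken from lists of ligands, receptors, proteases and matrix proteins. Of 63 genes on these lists 57 were tested, and 27 of them differed in LM1 and LM9 together versus HR1, 12 higher and 15 lower, with a median log2 fold change of −0.29 against −0.05 over all genes. In LM1 versus HR1 13 were higher and 13 lower (median −0.34), and in LM9 versus HR1 12 were higher and 13 lower (median 0.05). In LM9 versus LM1 10 were higher and 2 lower (median 0.21). In the fit without the tumour labelled HR1 replicate 1 these counts were 17 higher and 22 lower for LM1 and LM9 together, and 15 and 26 for LM1. The counts were 16 and 20 for LM9, and 24 and 9 for LM9 versus LM1. Of all genes 56.0%, 52.8%, 55.7% and 45.5% passed in that fit, in the same order. These lists were not counted with any other tumour left out. With all tumours the shares of the lists called were 47.4%, 45.6%, 43.9% and 21.1% in the 4 comparisons, against the 43.6%, 35.5%, 42.3% and 22.0% of all genes given above. Of 14 other secreted activators tested, 3 were higher and 3 lower in LM1 and LM9 together versus HR1 (median −0.42), and the same in LM1 versus HR1 (median −0.695). Of all genes 19.9% were higher and 23.6% lower, and 16.7% and 18.7%, in the same order. Without the tumour labelled HR1 replicate 1, 5 activators were higher and 4 lower, and 3 and 6. Of all 14107 genes in that fit 3885 were higher and 4017 lower, and 3788 and 3665. Among the activators that were higher, *Apln*, the ligand of an endothelial receptor, was 58.2, 47.1 and 90.2 CPM in HR1, 375.0 to 437.0 CPM in LM1 and 450.0 to 502.0 CPM in LM9 (log2 fold change 2.62 in LM1 versus HR1, adjusted p = 1.9e-04, or 2.56 without the tumour labelled HR1 replicate 1). *Adm*, the gene of the vasodilator adrenomedullin, was at most 3.32 CPM in HR1, 4.96 to 7.34 CPM in LM1 and 31.7 to 36.9 CPM in LM9 (3.84 in LM9 versus HR1, adjusted p = 7.1e-04, or 4.07 without it). *Ang*, which encodes angiogenin, was higher in LM1 than in HR1 by 2.81 (adjusted p = 0.0023), or 2.73 without it. Among those that were lower, *Ccn2*, a matrix-associated factor, fell in LM9 versus HR1 (log2 fold change −3.56, adjusted p = 0.0012, or −3.12 without it).

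Of 10 other secreted inhibitors, 3 were also higher and 3 lower in LM1 and LM9 together versus HR1 (median 0.25), where 19.9% of all genes were higher and 23.6% lower. Without the tumour labelled HR1 replicate 1, 5 were higher and 3 lower, where 3885 of all 14107 genes were higher and 4017 lower. *Cxcl10*, a chemokine gene that restrains endothelial growth, was 16.8 to 33.5 CPM in HR1, 113.0 to 143.0 CPM in LM1 and 283.0 to 317.0 CPM in LM9 (2.99 in LM1 and LM9 together versus HR1, adjusted p = 5.9e-05, or 2.98 without the tumour labelled HR1 replicate 1). *Sema3a*, a neuropilin ligand, was 2.63, 15.0 and 28.4 CPM in HR1 and at most 0.462 CPM in the LM tumours (−6.51 in the same comparison, adjusted p = 2.6e-04, or −7.00 without it). On the list of thrombospondins, *Thbs4*, a relative of *Thbs1*, was lower in that comparison (log2 fold change −4.74, adjusted p = 0.0062, or −5.30 without it), but the tumour labelled HR1 replicate 1 had 0.0997 CPM, which is within the LM values. Of the tested PDGF ligands and receptors other than *Pdgfa*, 4 of 5 were lower in LM1 versus HR1 and 5 of 5 in LM9 versus HR1, where 18.7% and 21.9% of all genes were lower. Counts on this list were the same without the tumour labelled HR1 replicate 1, where 3665 and 3921 of all 14107 genes were lower. *Pdgfra* and *Pdgfrb* stand on this list and on that of fibroblasts and pericytes, whose summed level was also lower in LM tumours (given above), and their part in the result was not tested. *Pdgfrl* was lower in LM9 than in LM1 (log2 fold change −0.75, adjusted p = 0.0486).

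Among the genes of these lists the largest increase from LM1 to LM9 was in *Ptn*, which encodes the growth factor pleiotrophin, at 0.559 to 1.02 CPM in LM1 and 65.6 to 71.0 CPM in LM9 (6.37, adjusted p = 0.0082). *Ptn* was 62.6 CPM in the tumour labelled HR1 replicate 1 and 4.64 and 3.29 CPM in the other HR1 tumours, and it was lower in LM1 than in HR1 (log2 fold change −4.83, adjusted p = 0.0109), or −2.26 without that tumour. *Mmp2*, a protease gene of the matrix, was 30.1 to 35.1 CPM in LM1 against 192.0 to 379.0 CPM in LM9 (3.10, adjusted p = 0.0070) and 2230, 658.0 and 511.0 CPM in HR1. Of 22 other targets of HIF, the transcription factor that also drives *Vegfa* in low oxygen, 12 were higher and none lower in LM9 versus LM1, where 11.5% of all genes were higher, with a median log2 fold change of 0.85 against 0.00 over all genes. In LM9 versus HR1 15 were higher and none lower (median 1.53), where 20.4% of all genes were higher. In LM1 versus HR1 6 were higher and 1 lower (median 0.26), where 16.7% of all genes were higher and 18.7% lower, and the 31.8% of the list that passed is below the 35.5% of all genes. Without the tumour labelled HR1 replicate 1 the counts were 16 and 0, 15 and 0, and 9 and 6 in the same order. Of all 14107 genes in that fit 3236 were higher and 3177 lower, 3941 and 3921, and 3788 and 3665. *Ero1l* is on the list of HIF targets, and *Angptl4*, which also responds to low oxygen in many cells, was at most 5.04 CPM in LM9.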

How the data were processed

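Sorted GFP-positive cells of 9 tumours were read as stranded mRNA libraries from a single end for 50 nt. For each tumour the authors deposited raw counts per gene, without normalization, made by alignment to mm10 with STAR and counting of reads on exon unions with QuasR, per the methods. The strand setting of the gene counts and the threshold that left 14108 genes are not given in the sources used here. The group and replicate of each tumour came from the labels, which do not say whether the tumours of a line came from separate animals, so p-values measure only the spread between these tumours.

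Counts were scaled with TMM factors (0.928 to 1.05), and 14086 genes passed edgeR's expression filter. In R 4.3.3, edgeR 4.0.16 was fitted once to the 3 groups of 3 tumours, and differences were tested by its robust quasi-likelihood F-test. P-values were adjusted by the Benjamini-Hochberg method over all genes tested, with a threshold of 0.05. Exon lengths, strands and overlaps came from GENCODE vM21 (GRCm38, the build of mm10). Gene coordinates came from RefSeq, as did promoter windows (GRCm38.p6). Exact tests used scipy 1.17.1. Scripts were tested on simulated data, in which small changes were missed far more often than large ones, so a factor that did not pass is not shown to be unchanged.

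As alternatives, tests were run with DESeq2 1.42.0, with limma-voom (limma 3.58.1, the framework of the study), with RLE size factors, without the filter, with a filter of 1 CPM in 3 tumours or more, with a replicate block, leaving out every tumour in turn, and on the 6 tumours of a pair of lines alone. The 7 factors and the gene lists were chosen with earlier results of these data known. Genes named beside the factors are *Nfib* and *Ero1l*, the VEGF receptors, co-receptors and ligands, the 5 genes closest to *Vegfa*, and from the lists up to 3 increases and 3 decreases per comparison, the largest with an adjusted p under 0.05 and a mean of at least 1 CPM.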

Additional observations from a re-analysis of the deposited data

Results flagged for a closer look

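For *Vegfa* and *Vegfb* the change against HR1 differed between the lines from metastases, by the test of LM9 versus LM1 in edgeR's quasi-likelihood fit. The difference was 1.49 on the log2 scale for *Vegfa* (adjusted p = 0.0329, higher in 3 of 3 LM9 tumours) and 1.06 for *Vegfb* (adjusted p = 0.0031, higher in 3 of 3 LM9 tumours). Each of them is a comparison with the same 6 LM tumours. The *Vegfb* difference passed in all 16 alternatives, with values from 1.01 to 1.09. The *Vegfa* difference passed in 9 of 16, among them the fit of only these 6 tumours (1.48, adjusted p = 1.3e-04). It did not pass with the replicate block or in the 6 fits that each left out an LM tumour. Groups of 3 tumours were not tested for a single deviating tumour.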

How the results depend on the processing

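Of 441 values of single factors under the alternatives, 380 kept their direction and their side of the threshold, 34 no longer passed, 16 passed only under the alternative and 11 changed sign, none of these 11 past the threshold. *Vegfa* kept its direction in every alternative run. With tumours left out its log2 fold change ranged from 0.96 to 1.56 in LM1 versus HR1 and from 1.30 to 1.72 in LM9 versus LM1, and in LM1 versus HR1 with only the 6 tumours compared it was 1.31 (adjusted p = 0.0791). The number of factors called then ranged from 1 to 6 in LM1 versus HR1, 2 to 5 in LM9 versus HR1 and 1 to 3 in LM9 versus LM1, and the number of genes from 3121 to 7453, 3768 to 7862 and 1150 to 6413, with the most genes in each case without HR1 replicate 1. With only the 6 tumours compared, 1 factor and 3008 genes were called in LM1 versus HR1 and 5 factors and 7709 genes in LM9 versus LM1. Changes of sign arose mostly without HR1 replicate 3. With tumours left out, *Angptl2* ranged from −0.57 to 0.32 in LM1 and LM9 together versus HR1, −0.45 to 0.44 in LM1 versus HR1 (0.0013 without HR1 replicate 2) and −0.70 to 0.19 in LM9 versus HR1, and with limma-voom it was 0.076 and 0.20 in LM1 and LM9 together and in LM1 versus HR1. *Pdgfa* ranged from −0.58 to 0.077 in LM1 and LM9 together and −0.28 to 0.38 in LM9 versus HR1, *Angptl4* from −1.84 to 0.095 in LM1 versus HR1, and *Vegfb* from −0.065 (without HR1 replicate 2) to 0.20 in LM9 versus HR1. The causes were not tested. *Angptl4* did not pass versus HR1 with limma-voom in any comparison run.

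The replicate numbers did not pair the tumours, as deviations of same-numbered tumours correlated between −0.117 and 0.162, over 0.1 in 1 of 9 pairs, and the own number correlated best in 7 of 18 comparisons. With the number as a replicate block, 5234, 4204, 5078 and 2295 genes and 4, 2, 3 and 1 factors were called in the 4 comparisons. *Vegfa* was at 1.37 in LM1 versus HR1 (adjusted p = 0.0505) and 1.56 in LM9 versus LM1 (adjusted p = 0.0508), and *Angptl2* at 0.085 in LM1 versus HR1. The block also ended the *Angptl4* calls in LM1 and LM9 together (−1.83, adjusted p = 0.199) and in LM9 (−2.87, adjusted p = 0.0992) versus HR1, and with it *Thbs1* in LM1 versus HR1 had an adjusted p = 0.0987.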
